A study of Arabidopsis thaliana with 12 samples.

Results

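Seedlings of the Arabidopsis line rb10 were compared with wild type (WT) at the end of 1 h of white light, with 3 arrays of each genotype, or 6 of the 12 arrays in the series. All plants were Col-0, 5 days old, and had been raised in darkness on MS medium of reduced strength that held no sucrose. The light groups then stood for 1 h in continuous white light of 120 μmol per m2 per s, while the dark groups, also 3 arrays per genotype, stayed in darkness. RNA came from pools of whole seedlings and was read on Affymetrix Gene 1.0 ST arrays. The labels call the 3 arrays of a group biological replicates and say nothing of separate sowings, so p-values measure the spread between these pools. The labels say no more of rb10 than its name; the study is known to have used it as a line mutated in RAPTOR1 (AT3G08850, also written RAPTOR1B), and no second line was measured.

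The comparison covered the 16722 of 38408 probe sets that are paired with exactly 1 gene, which stand for 16548 genes. Another 759 probe sets are paired with several genes and 20927 with none, and many well known genes fall among the unpaired, so a family's count covers its measured members only. Values are log2 signals, so a difference of 1 is a doubling, and every difference below is rb10 minus WT. A gene was called when the limma test over the 6 light arrays gave a Benjamini-Hochberg adjusted p below 0.05.

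RAPTOR is the partner of the TOR kinase that brings substrates to it. In plants, as in yeast and animals, the TOR complex promotes growth, ribosome production and protein synthesis when nutrients are at hand, and holds back autophagy and the breakdown of reserves. A seedling germinated in darkness lives on its seed reserves, elongates its stem, and starts to green only when light arrives.

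RAPTOR1 read 11.62, 11.69 and 11.58 in the WT light arrays and 10.90, 10.89 and 11.13 in the rb10 light arrays. All 3 rb10 arrays were below all 3 WT arrays, by 0.66 ± 0.11 (SE, 3 arrays per group, adjusted p = 0.00904). The transcript was still well detected in rb10, and where the probes lie relative to any insertion is not given, so the value checks the labels only in part. The paralogue RAPTOR2 (AT5G01770) read 8.29 ± 0.10 in WT and 8.28 ± 0.05 in rb10 (SD, n = 3), a difference of -0.01 with a 95% interval of -0.26 to 0.24. The reference genes measured here were PEX4, a peroxisomal ubiquitin-conjugating enzyme, and GAPC2, a glycolytic enzyme. PEX4 differed by -0.02 ± 0.12 and GAPC2 by 0.29 ± 0.11 (SE), neither of them called (adjusted p = 0.918 and 0.114). In GAPC2 all 3 rb10 arrays were above all 3 WT arrays (95% interval 0.03 to 0.56). It was called higher in the alternative fit over 11 arrays, so it was not a fully unchanged reference.

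Light arrays of the same genotype correlated at 0.990 to 0.991 over the 16722 tested probe sets, and arrays of different genotype at 0.968 to 0.972. The array labelled rb10 dark replicate 3 stands apart from its group. It correlated at 0.990 to 0.991 with the WT dark arrays but at 0.979 to 0.980 with the other rb10 dark arrays, and its RAPTOR1 signal, 11.60, lay near those of WT. It takes no part in the 6-array comparison, and dark tests below are over 11 arrays, without it, unless 12 are named. Over all 12 arrays 1 probe set was called in darkness. Signals of single arrays and the plots show all 12. Medians of all probe sets ran from 6.72 to 6.76 in the WT light arrays and from 6.88 to 6.91 in those of rb10. Setting all arrays to 1 median therefore lowers every difference by 0.15, which takes some families with a median near 0 to the other side.

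After light, 3250 probe sets were called, which is 19.4% of those tested. They divided almost evenly into 1656 higher in rb10 (9.90%) and 1594 lower (9.53%), and the median difference over all tested probe sets was -0.02. Differences were often large, with 621 called higher and 581 called lower by at least 1. In every called probe set the 3 rb10 arrays lay wholly above or wholly below the 3 WT arrays. With array medians set equal the split became 1154 higher and 2768 lower.

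The largest difference was that of AT4G11190, a dirigent protein gene. Dirigent proteins steer the coupling of the phenolic units that form lignans and lignin. AT4G11190 read 3.169, 4.21 and 4.58 in WT and 10.94, 10.83 and 11.07 in rb10. It was thus 125-fold higher in rb10 (log2 6.96 ± 0.34, adjusted p = 0.000184), and its WT signals lay below 4.59, the 25th percentile of the mean signals of tested probe sets. A neighbour in the same family, AT4G11210, read 3.69 to 3.89 in WT and 9.32 to 9.95 in rb10, a 54.8-fold difference (adjusted p = 4.92e-05). The WT signals of AT4G11210 were also below that percentile, and without detection calls both folds rest on a low baseline. The groups were far apart in both genes, and in darkness rb10 replicates 1 and 2 were high as well, while rb10 replicate 3 read 4.48 and 4.66, like WT.

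Next in size were AT4G33610 (log2 4.57 ± 0.28), AT1G55990 (4.57 ± 0.33) and AT5G07475 (4.33 ± 0.26), which the annotation gives by locus code alone. They were followed by AT2G23540, a GDSL esterase gene (4.11 ± 0.26), AT2G35380, a class III peroxidase gene (4.07 ± 0.26), AT5G04120 (4.04 ± 0.11), AT1G26390, a berberine bridge enzyme-like gene (3.91 ± 0.37), and AT2G16005 (3.87 ± 0.50). Adjusted p-values of these 8 genes ran from 4.42e-05 to 0.00301. All 8 were also called higher in darkness over 11 arrays.

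At the other end stood small heat shock proteins, chaperones that keep unfolding proteins from clumping. AT1G53540 read 10.98, 10.52 and 10.28 in WT and 5.68, 5.75 and 4.83 in rb10, a 36.0-fold lower signal (log2 -5.17 ± 0.29, adjusted p = 0.000258). AT1G54050 was lower by 4.57 ± 0.32 and AT1G52560 by 4.56 ± 0.47. ATHSP22.0 (AT4G10250), a small heat shock protein of the endoplasmic reticulum, read 8.43 to 9.38 in WT and 4.78 to 5.17 in rb10. None of the 4 overlapped between genotypes, which holds for every called probe set. In all 4 the rb10 light signals were much nearer to the dark signals than those of WT were.

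The other 6 of the 10 largest negative differences were those of AT2G32200, a CYSTM gene (-4.44 ± 0.22), AT5G05965 (-4.29 ± 0.13), AT3G29970 (-4.24 ± 0.23), AT1G78720 (-3.86 ± 0.10), CML38, a calmodulin-like calcium sensor (-3.84 ± 0.19), and AT2G41730 (-3.63 ± 0.39). The 10 genes differed in their darkness values. AT3G29970 and AT1G78720 were already lower in darkness by 4.04 and 3.73 over 11 arrays and AT5G05965 by 1.61 (adjusted p = 0.000311), although none of the 3 was called over 12 (adjusted p = 0.266, 0.2499 and 0.252). In contrast, the heat shock genes, AT2G32200, CML38 and AT2G41730 were not called in darkness over 11 arrays.

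**Figure D1:**
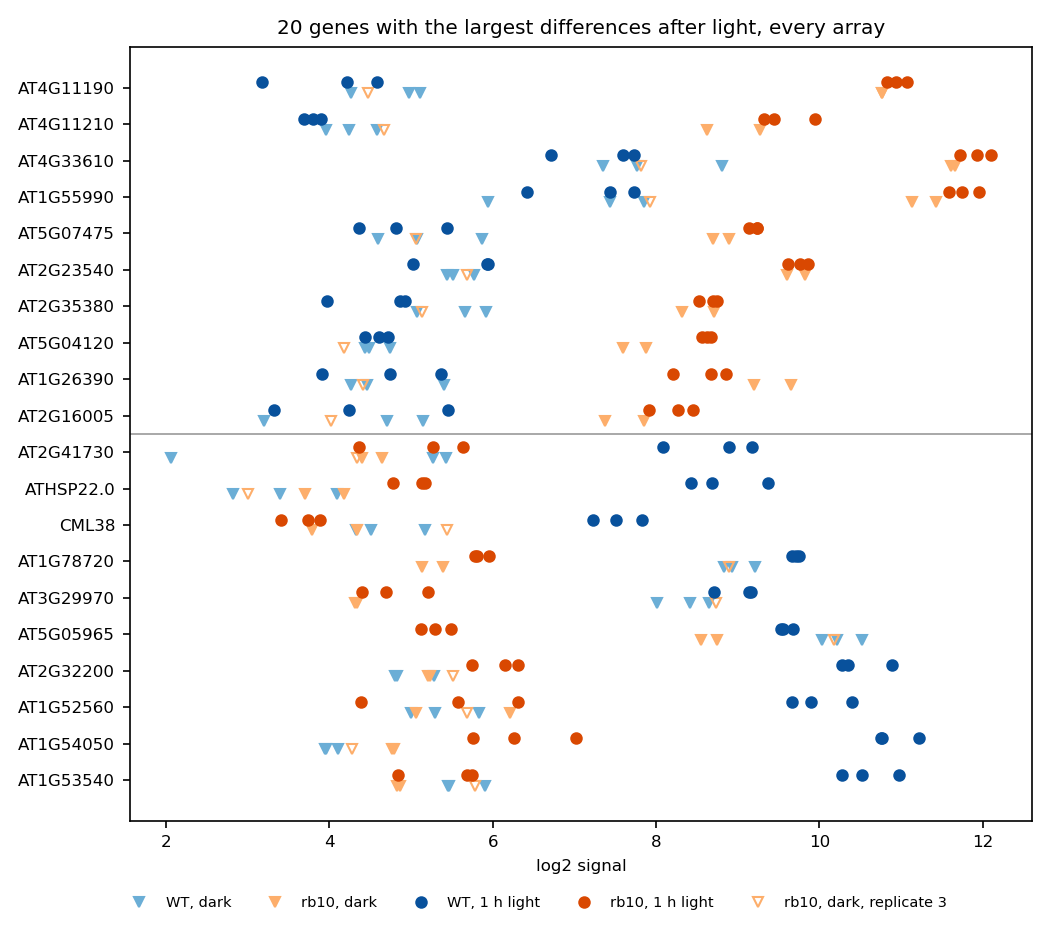
Log2 signal of the 10 called genes with the largest positive differences after light (upper block) and the 10 with the largest negative ones (lower block), 1 point per array. Circles are light arrays, triangles dark arrays, and the open triangle is the array labelled rb10 dark replicate 3. The upper genes were high in rb10 in light and, except in the open triangle, in darkness, whereas most of the lower genes were high only in WT after light.

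Whole families were counted next. Over all tested probe sets 9.90% were called higher and 9.53% lower, and each count below is to be read beside these shares. The families were assembled from symbols in the annotation and, for genes known by a locus code alone, from general knowledge of Arabidopsis gene families, since the files describe no gene. They were also chosen with results of these data known, so their shares describe the lists and are not independent evidence. Of the 46 families with at least 5 measured members, 19 had a share called higher of at least 2 times that of all probe sets, and 18 a share called lower of at least 2 times.

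**Figure D2:**
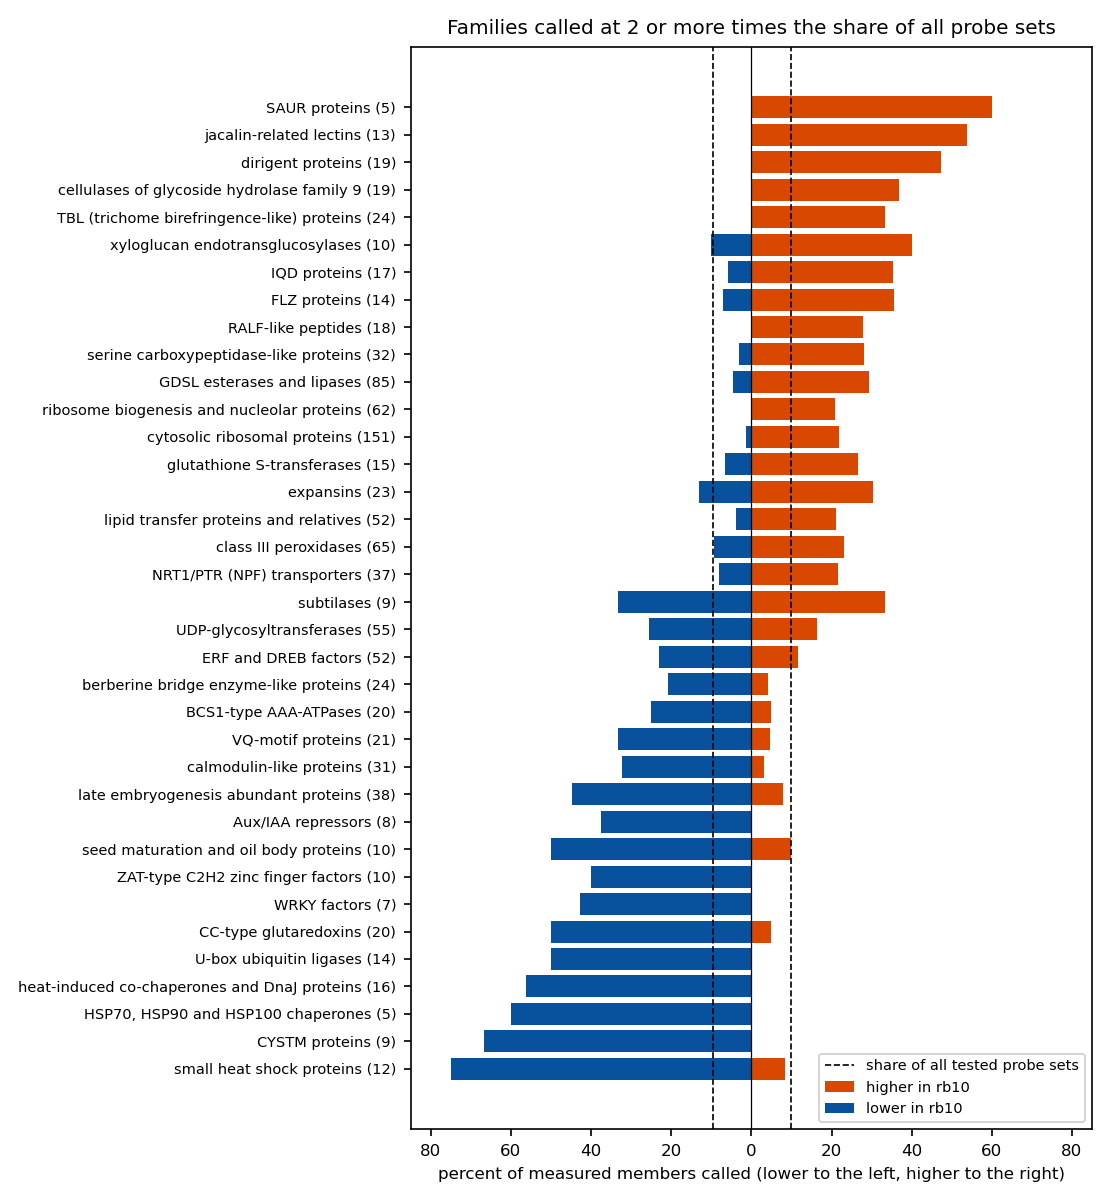
Percent of the measured members of each family called lower (left, blue) or higher (right, orange) in rb10 after light, for the 36 families in which either share is at least 2 times that of all tested probe sets. Dashed lines mark 9.53% lower and 9.90% higher, the shares over all probe sets, and the number of measured members follows each name. Among families of 10 or more members, jacalin-related lectins and dirigent proteins reach the largest shares on the right, and small heat shock proteins and co-chaperones on the left.

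Families of the cell wall and its barriers were examined first. Among 19 dirigent genes, 9 were called higher and 0 lower, or 47.4% against the 9.90% background, with a family median of 0.59. Besides the leading pair, AT5G42500 was higher by 2.54 ± 0.15 and AT2G21100 by 1.81 ± 0.45. The count was 6 to 9 when 1 array was left out, and 7 with equal medians.

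GDSL esterases and lipases, a large family of secreted hydrolases that includes enzymes of cutin and suberin assembly, had 25 of 85 members called higher and 4 lower (29.4% and 4.7%). The median member hardly differed (0.04, and -0.11 with equal medians), with members on both sides. After AT2G23540 the largest were AT1G74460 (3.28 ± 0.17), AT5G37690 (3.07 ± 0.19), AT3G50400 (3.01 ± 0.15) and AT1G54010 (2.85 ± 0.13). Only 1 of the 4 lower calls was made without WT replicate 1, and 2 without any other array but rb10 replicate 2.

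Suberin is the waxy polymer of root barriers. FACT (AT5G63560), the fatty alcohol caffeoyl transferase of root waxes, was the 1 measured gene of 33 symbols listed for suberin. It read 5.92 to 6.38 in WT and 8.31 to 8.94 in rb10 (log2 2.35 ± 0.21, adjusted p = 0.000944). Lipid transfer proteins, which carry such lipids through the wall, had 11 of 52 members called higher and 2 lower (21.2% and 3.8%). Their top members were AT2G18370 (3.83 ± 0.20), AT3G58550 (3.05 ± 0.16) and AT5G46900 (2.63 ± 0.24), while the family median, 0.06, turned to -0.09 with equal medians.

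Class III peroxidases, which make or spend hydrogen peroxide in the wall, showed 15 of 65 higher and 6 lower (23.1% and 9.2%). AT2G35380 read 3.97, 4.93 and 4.86 in WT and 8.53, 8.75 and 8.70 in rb10. AT2G24800 (2.39 ± 0.20), AT1G68850 (2.26 ± 0.18), AT4G30170 (1.4 ± 0.15) and AT1G44970 (1.34 ± 0.16) followed. The number called lower, 6 of 65, was near the background share, and it came to 10 with equal medians.

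Cellulases of glycoside hydrolase family 9, which trim cellulose, had 7 of 19 members called higher and 0 lower (median 0.48), and the count was 7 to 8 in every fit that left out 1 array. GH9B8 read 5.82, 5.67 and 5.81 in WT and 8.63, 8.73 and 8.46 in rb10 (log2 2.84 ± 0.12, adjusted p = 9.19e-05). GH9B15 was higher by 2.39 ± 0.35, GH9C2 by 1.85 ± 0.11, GH9B13 by 1.58 ± 0.16 and GH9B5 by 1.12 ± 0.19. Like every called probe set, these genes were separated by genotype in all 6 light arrays.

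Xyloglucan endotransglucosylases, which cut and rejoin xyloglucan chains, had 4 of 10 higher and 1 lower. XTH33 read 7.26 to 7.31 in WT and 8.95 to 9.03 in rb10 (1.71 ± 0.09). XTH32 was higher by 2.27 ± 0.28, XTH19 by 0.91 ± 0.12 and XTH16 by 0.66 ± 0.15, and XTH18 lower by 0.60 ± 0.16. The close relatives XTH18 and XTH19 thus lay on opposite sides after light, although both had been higher in rb10 in darkness, by 0.79 and 2.24 over 11 arrays (adjusted p = 0.0118 and 1.38e-05). XTH18 kept its call after light in 1 of the 6 fits that left out an array, the one without rb10 replicate 1.

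Expansins, proteins that let walls stretch under acid conditions, had 7 of 23 higher and 3 lower, with a median of 0.00 (-0.15 with equal medians). EXPB1 was higher by 2.0 ± 0.31, EXPA15 by 1.13 ± 0.19, EXLA2 by 0.95 ± 0.14 and EXPA8 by 0.92 ± 0.16, and EXLB1 was lower by 1.24 ± 0.21. The higher count was 4 without WT replicate 2, and the lower count was 1 without WT replicate 1 or rb10 replicate 2. TBL proteins, many of which acetylate wall polysaccharides, had 8 of 24 higher and 0 lower, 7 of them with equal medians, led by TBL30 (1.49 ± 0.17), TBL45 (1.22 ± 0.15) and TBL24 (1.14 ± 0.19). Pectin methylesterases stayed near the background, with 6 of 49 higher and 4 lower, the latter 0 to 2 when any 1 array was left out (0 without WT replicate 3 or rb10 replicate 1). With equal medians 7 pectin methylesterases were called lower and the median moved from 0.02 to -0.13.

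Other secreted or vacuolar families differed among themselves. Berberine bridge enzyme-like proteins had 1 of 24 higher and 5 lower, subtilases 3 of 9 higher and 3 lower, germin-like proteins 1 of 20 higher and 2 lower, and defensin-like peptides 3 of 83 higher and 3 lower. The germin-like and defensin-like shares were near or below the background. The subtilase lower count was 1 without WT replicate 1, WT replicate 2, rb10 replicate 1 or rb10 replicate 2. Defensin-like higher calls were 0 or 1 without any 1 array, and equal medians gave 0 higher and 10 lower. The median WT light level of the defensin-like genes was low, 3.19. Jacalin-related lectins, which bind carbohydrates, had 7 of 13 members called higher and 0 lower, or 53.8%, with a median of 0.77. The median level of the 13 genes in WT light was low, 3.91, below the 25th percentile of tested probe sets (4.59). JAL31 read 6.47 to 6.92 in WT and 8.59 to 8.77 in rb10 (1.90 ± 0.15), JAL33 was higher by 1.51 ± 0.11, and AT1G52050 and AT1G52070 by 2.85 ± 0.46 and 2.03 ± 0.28. PYK10, an abundant beta-glucosidase of endoplasmic reticulum bodies in roots and seedlings, was higher by 0.95 ± 0.10 (adjusted p = 0.00157). The beta-glucosidase family as a whole was even, with 3 of 24 higher and 3 lower (12.5% each, near the shares of all probe sets). Its median was 0.11 (-0.04 with equal medians). The largest difference in that family was a negative one, that of BGLU28 (-2.76 ± 0.32), known as a gene of sulfur shortage.

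Serine carboxypeptidase-like proteins had 9 of 32 higher and 1 lower (5 higher without WT replicate 1 or rb10 replicate 1, and 6 with equal medians), with scpl28 at 2.64 ± 0.32 and SCPL27 at 1.23 ± 0.13. RALF-like peptides, secreted signals that bind receptor kinases and change the wall and its acidity, had 5 of 18 higher and 0 lower, with RALFL34 at 1.53 ± 0.13. That count was 3 without rb10 replicate 2 or replicate 3, and the median, 0.03, was -0.11 with equal medians. NRT1/PTR transporters, which carry nitrate, peptides and hormones, had 8 of 37 higher and 3 lower (7 and 7 with equal medians). These were shares of 21.6% and 8.1%, the latter near that of all probe sets. In that family AT3G45700 read 6.36 to 6.76 in WT and 10.16 to 10.26 in rb10 (3.61 ± 0.13), and AT1G59740 was lower by 1.83 ± 0.13.

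Markers of other tissues were few among the paired probe sets. EXPA18, a root hair expansin, was higher by 0.68 ± 0.15 (adjusted p = 0.0199). Its call was lost without WT replicate 2, rb10 replicate 2 or rb10 replicate 3, and in the fits over 12 and 11 arrays (adjusted p = 0.122 and 0.126). EXPA7, the other measured root hair gene of 15 symbols listed, differed by 0.41 (adjusted p = 0.287). SPCH, the factor that starts the stomatal lineage, was higher by 1.24 ± 0.16 (adjusted p = 0.00334), while MUTE (0.69), STOMAGEN (0.70) and the FAMA gene (listed as FMA, 0.04) were not called. Since whole seedlings were sampled, more cells of a type and more RNA per cell cannot be told apart, and the part of tissue makeup in the wall families was not tested.

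Late embryogenesis abundant (LEA) proteins protect drying embryo cells and are normally cleared after germination, and 17 of 38 measured members were called lower against 3 higher (44.7% and 7.9%, median -0.51). When the light difference was taken from a fit over all 12 arrays the lower count was 10, and over 11 arrays 18. The seed LEA gene M17 read 11.50, 11.05 and 11.32 in WT and 9.14, 9.24 and 8.47 in rb10 (-2.34 ± 0.23). AT3G17520 was lower by 2.45 ± 0.27, AT3G15670 by 2.1 ± 0.14, M10 by 1.84 ± 0.27 and AT2G42560 by 1.72 ± 0.19. All 3 rb10 arrays were lower in each, as in every probe set called lower.

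Seed storage and oil body proteins showed 5 of 10 called lower and 1 higher, and the lower count was 3 without WT replicate 1, WT replicate 2 or rb10 replicate 1, and 2 in the fit over 12 arrays. AT1G54870 (-2.57 ± 0.15), AT3G56350 (-2.40 ± 0.24) and AT2G18540 (-2.38 ± 0.43) led. The exception was OLEO3, an oil body coat protein, which read 6.62, 7.08 and 7.68 in WT and 8.04, 8.10 and 8.09 in rb10 (0.95 ± 0.25, adjusted p = 0.0435). OLEO3 lost the call with equal medians (adjusted p = 0.0631) and without any 1 array other than WT replicate 3. Among desiccation and cold genes, the dehydrin LTI30 was lower by 1.39 ± 0.13 and COR47 by 0.38 ± 0.10, and KIN1, KIN2, COR15A and COR15B were not called. COR47 lost the call without any 1 array and in the fit over 12 arrays (adjusted p = 0.104).

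In the small heat shock protein family, 9 of 12 members were called lower and 1 higher, or 75% against 9.53%, with a median of -2.87. The 9 calls were the same in number in all 6 fits that left out an array. Besides the 4 already given, AT5G37670 was lower by 3.32 ± 0.24, AT1G59860 by 2.99, AT1G07400 by 2.74, AT5G51440 by 1.49 and AT2G29500 by 0.86. AT4G21870 ran the other way, higher by 1.25 (adjusted p = 0.000564), and AT2G19310 and AT5G54660 were not called.

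The median level of the 12 genes, centred on each gene's own mean over 12 arrays, was 3.19, 2.82 and 2.79 in WT light and 0.58, 0.13 and 0.07 in rb10 light. In darkness it was -1.41 to -1.14 in WT and -1.28 and -1.08 in rb10, with -1.01 in rb10 replicate 3. The dark groups overlapped, and rb10 light arrays lay between the dark arrays and WT light.

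Larger chaperones and helpers followed with smaller sizes. Hsp70-2 (AT5G02490) was lower by 2.18 ± 0.13, BIP1, the HSP70 of the endoplasmic reticulum, by 1.01 ± 0.16, and AT3G09440, another HSP70, by 0.52 ± 0.12, making 3 of 5 measured in that class. Heat-induced co-chaperones had 9 of 16 lower and 0 higher, among them Fes1A, an HSP70 exchange factor, at -2.31 ± 0.23, AT1G71000 at -2.46 ± 0.34 and AT5G48570 at -1.72 ± 0.26. Of 6 genes of the unfolded protein response, BZIP60, its membrane-borne transcription factor, was lower by 0.88 ± 0.13 together with BIP1. All 6 had negative differences, and 5 of them were called with equal medians.

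CYSTM proteins, small membrane-anchored stress proteins, had 6 of 9 members called lower and 0 higher (66.7%, median -1.21). AT2G32200 read 10.89, 10.35 and 10.28 in WT and 6.31, 6.15 and 5.75 in rb10. Its relatives AT2G32190 and AT2G32210 were lower by 2.85 ± 0.25 and 2.01 ± 0.20, AT1G56060 by 2.42 ± 0.38 and AT1G05340 by 1.21 ± 0.12. As in every called probe set, the groups did not overlap in these 5.

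Calcium sensing and ubiquitination genes with known roles in wounding and defence were counted in the same way. Calmodulin-like proteins had 10 of 31 lower and 1 higher, and the lower count was 6 without WT replicate 3. CML37 read 7.25 to 7.87 in WT and 4.33 to 4.52 in rb10 (-3.10 ± 0.17), CML38 was given above, and AT3G29000 and AT1G21550 were lower by 3.48 ± 0.17 and 2.25 ± 0.29. U-box ubiquitin ligases had 7 of 14 lower and 0 higher in all 6 fits that left out an array. PUB23, which dampens immune signalling, was lower by 1.64 ± 0.14 and its relative PUB24 by 1.14 ± 0.13, with PUB54 at -1.58 ± 0.10 and PUB19 at -1.53 ± 0.17. BCS1-type AAA-ATPases, ring-shaped ATPases of which some are defence-induced, had 5 of 20 lower and 1 higher (3 lower without WT replicate 1 or rb10 replicate 1), led by AT3G28580 (-3.51 ± 0.25), a known marker of singlet oxygen.

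ZAT-type zinc finger factors had 4 of 10 lower and 0 higher, with ZAT7 at -2.78 ± 0.20, AT3G46080 at -3.29 ± 0.35 and STZ (ZAT10), a salt and oxidative stress factor, at -1.98 ± 0.13. WRKY22, a factor of immune signalling, read 10.95, 10.82 and 10.95 in WT and 8.70, 9.06 and 8.51 in rb10 (-2.15 ± 0.16), with WRKY6 at -0.93 ± 0.12 and WRKY47 at -0.71 ± 0.13, so 3 of 7 measured WRKY genes were lower. VQ-motif proteins, partners of WRKY factors, had 7 of 21 lower and 1 higher (4 lower without WT replicate 3), with AT2G22880 at -2.50 ± 0.10. ERF and DREB factors had 12 of 52 lower and 6 higher (23.1% and 11.5%, the latter near the 9.90% of all probe sets). They ran from ABR1, a repressor of abscisic acid responses, at -2.55 ± 0.24 to AT2G44940 at 2.71 ± 0.23.

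**Figure D3:**
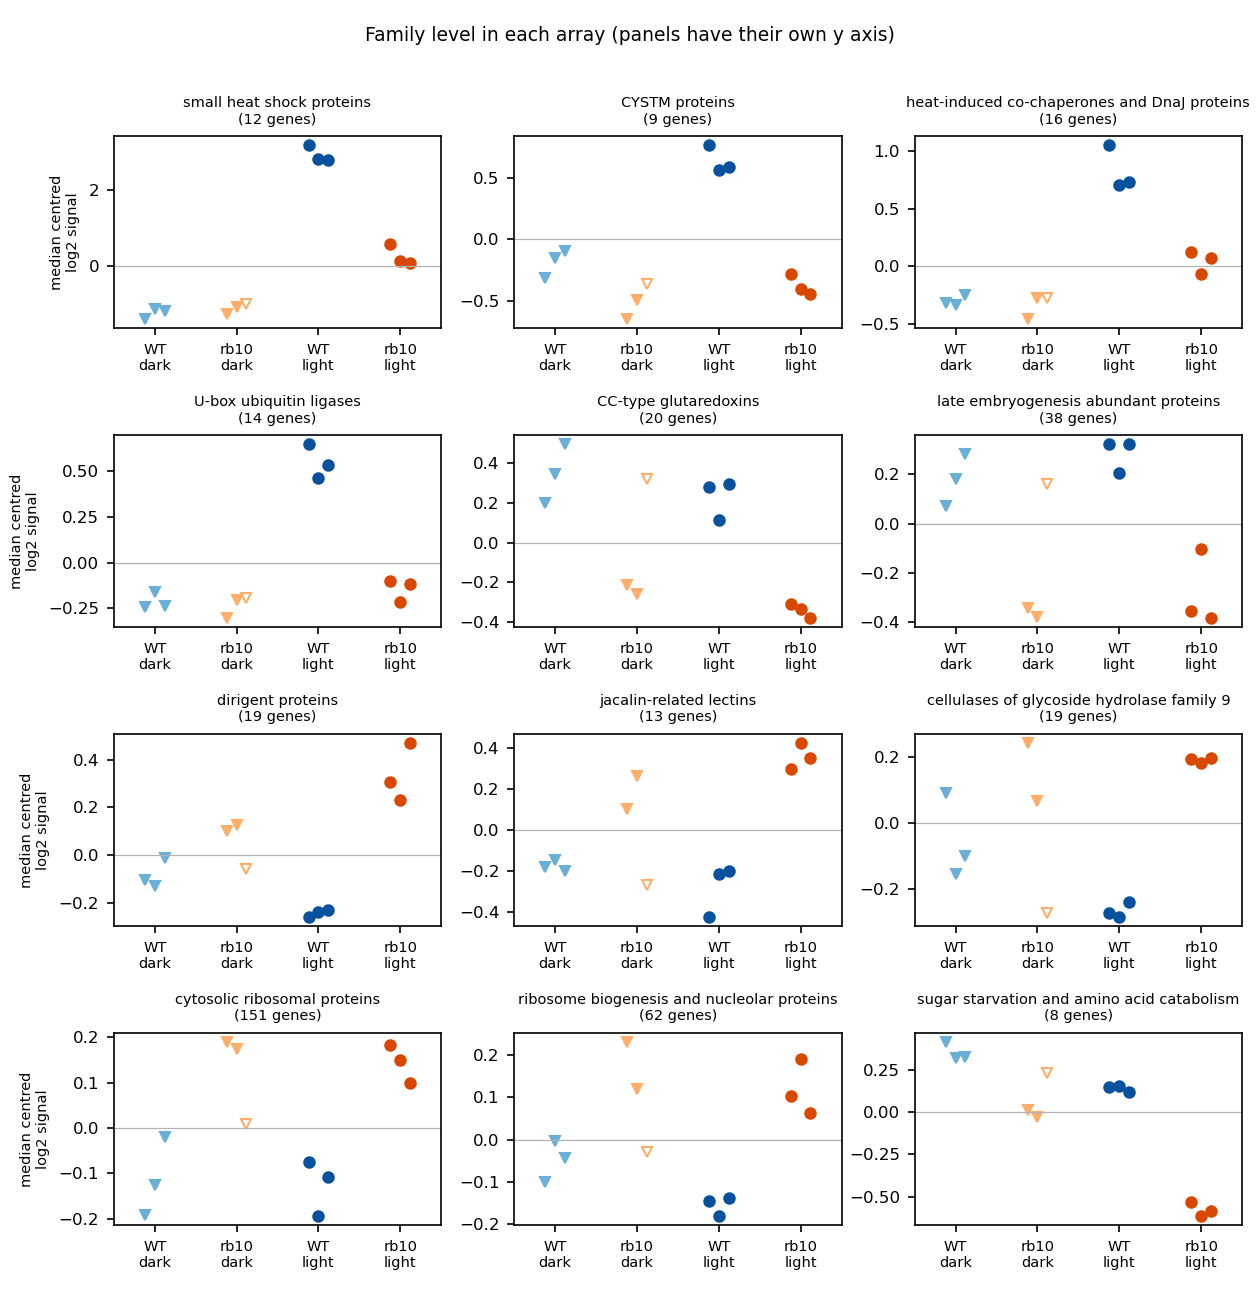
Median over a family's measured genes of the log2 signal centred on each gene's mean over 12 arrays, 1 point per array, with the open triangle for the array labelled rb10 dark replicate 3 and a separate y axis per panel. In the top row and for U-box ligases the WT light arrays stand above the other groups. Lectins, LEA proteins and glutaredoxins are divided by genotype in light and, but for the open triangle, in darkness.

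Redox and conjugation enzymes were mixed. CC-type glutaredoxins, small plant-specific oxidoreductases tied to nitrogen status and flower development, had 10 of 20 lower and 1 higher (median -0.54). AT3G62950 read 8.22 to 8.28 in WT and 4.50 to 4.88 in rb10 (-3.51 ± 0.13, adjusted p = 7.99e-05), AT5G18600 was lower by 1.95 ± 0.21, AT4G15700 by 1.85 ± 0.21 and ROXY2 by 1.57 ± 0.25. Glutathione S-transferases went the other way, 4 of 15 higher and 1 lower, but only 2 were higher with equal medians and without WT replicate 2, WT replicate 3 or rb10 replicate 2. GSTU20 was the highest at 2.15 ± 0.37 and GSTF3 the lowest at -0.58 ± 0.11. UDP-glycosyltransferases, which attach sugars to hormones and phenolics, had 9 of 55 higher and 14 lower. These were shares of 16.4% and 25.5%, against 9.90% and 9.53% of all probe sets. UGT72E2 and UGT72E3, which act on lignin precursors, were at 1.82 ± 0.40 and 1.89 ± 0.46, and UGT85A5 at -1.47 ± 0.27. Leaving out 1 array gave 5 higher without WT replicate 3 or rb10 replicate 1, and 9 lower without any WT replicate or rb10 replicate 1.

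All 8 measured genes of a list of 35 symbols for sugar starvation and amino acid breakdown were called lower, with a median of -0.67. ATL8, a starvation-induced RING ubiquitin ligase, read 7.37, 7.41 and 7.81 in WT and 5.38, 5.32 and 5.70 in rb10 (-2.06 ± 0.17, adjusted p = 0.000648). MCCB, a subunit of the enzyme that breaks down leucine, was lower by 1.12 ± 0.14. PPDK, which helps turn seed protein and lipid carbon into sugar, was lower by 1.12 ± 0.10. EXO, which is on the list although it is known as a wall protein that responds to brassinosteroid, was lower by 0.79 ± 0.12. D2HGDH (-0.55 ± 0.11) and ETFQO (-0.52), mitochondrial enzymes of amino acid breakdown, followed, with the SnRK1 subunit AKINBETA1 (-0.42) and AT4G33150 (-0.34). The count of 8 is thus one of list members and not of starvation genes alone. The groups were apart in all 8, as in every called probe set. Only 5 of the 8 were called without WT replicate 1, WT replicate 2 or rb10 replicate 2.

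Of 31 symbols listed for the use of seed oil 5 were measured, with 3 called lower, 1 higher (OLEO3, above) and AIM1 not called. PPDK was among the lower ones, SDP1, the main lipase of seed oil, was lower by 0.53 ± 0.10, and ICL, the glyoxylate cycle enzyme isocitrate lyase, by 0.51 ± 0.09. Autophagy genes had 5 of 11 lower and 0 higher, all 5 from the ATG8 group, whose products coat the autophagosome. ATG8E read 10.56, 10.29 and 10.31 in WT and 9.42, 9.14 and 9.35 in rb10 (-1.09 ± 0.13, adjusted p = 0.00239), ATG8B was lower by 0.63 ± 0.13, and ATG8H, ATG8C and ATG8D by 0.41, 0.41 and 0.34. Those smaller differences were near the threshold, since 1 or 2 autophagy calls were left without any 1 array (1 without WT replicate 1 or rb10 replicate 2), while ATG8G differed by less than 0.01.

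Among 11 photosynthesis genes 3 were called higher and 1 lower. SBPASE and PRK, both enzymes of the Calvin cycle, were higher by 1.24 ± 0.11 and 0.62 ± 0.14, RCA, which activates Rubisco, was higher by 0.48 ± 0.11, and the antenna protein LHCB4.1 was lower by 0.48 ± 0.12. LHCB4.1 kept the call in 1 of the 6 fits that left out an array, the one without rb10 replicate 2, and lost it over 12 arrays (adjusted p = 0.0554). SBPASE read 8.75 to 8.85 in WT and 9.95 to 10.18 in rb10, and it was the 1 higher call with equal medians and without WT replicate 1, WT replicate 2 or rb10 replicate 1. In chlorophyll synthesis HEMA2, an entry enzyme, was lower by 0.67 ± 0.12 and CHLM, a methyltransferase, by 0.42 ± 0.11, and 5 others were not called. Leaving out any 1 array left 1 of these 2 calls. None of the 63 plastid-encoded genes was called (limma, adjusted p), against 19.4% of all probe sets, with a median of 0.00 (-0.15 and 1 lower call with equal medians). Their median level in WT light, 12.89, lay high on the scale, where the array maxima were 14.06 to 14.14. Whether this hid differences was not tested. The 5 flavonoid genes measured gave no call either, the nearest being UGT78D2 (0.43, adjusted p = 0.184).

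**Figure D4:**
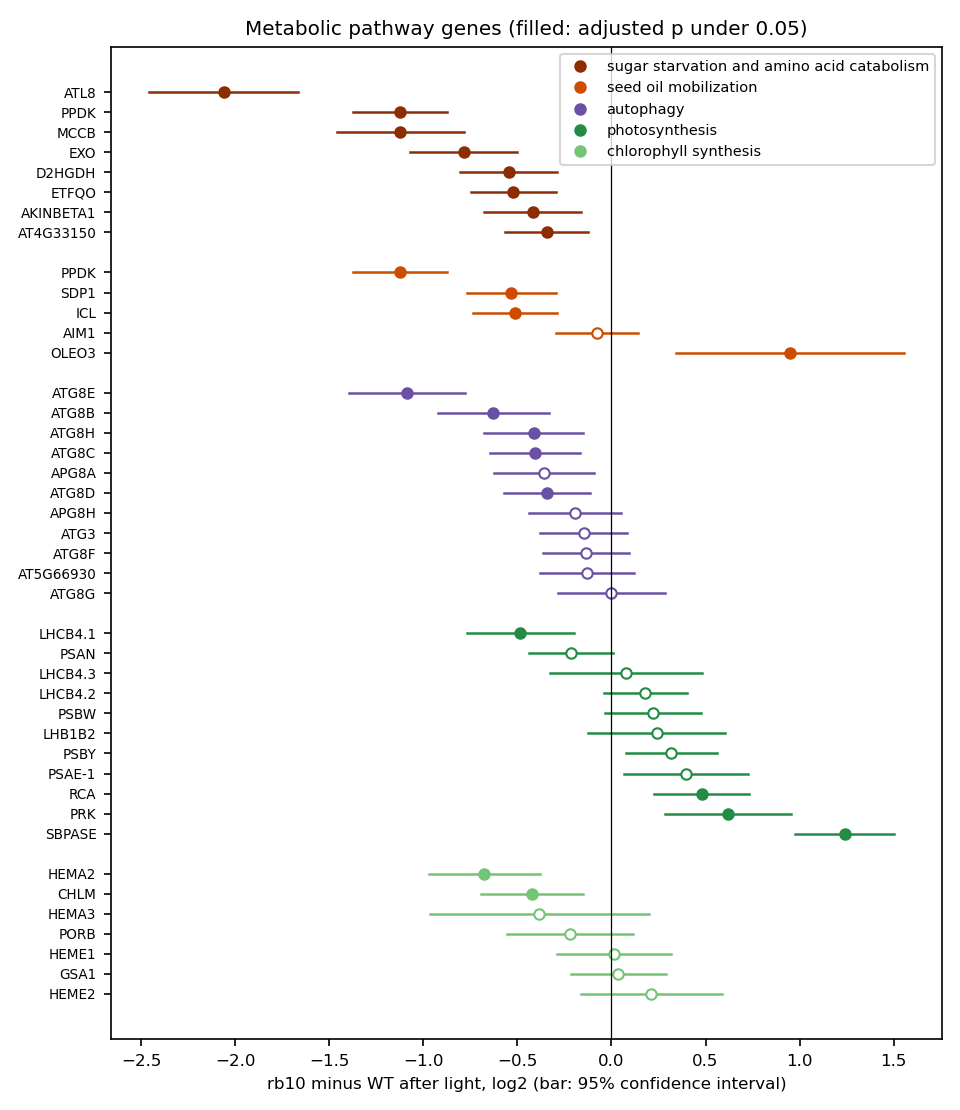
Difference between rb10 and WT after light on the log2 scale for every measured gene of 5 metabolic lists, with 95% confidence intervals from limma and filled points for adjusted p below 0.05. All 8 genes of the starvation list, EXO among them, lie left of 0, the ATG8 genes lie at or left of it, and SBPASE, PRK and RCA lie to the right.

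Of 151 genes for cytosolic ribosomal proteins, 33 were called higher and 2 lower (21.9% and 1.3%), with a median of 0.29. This small shift depended on scale, with 10 calls and a median of 0.14 when array medians were equal. The count was 10 to 18 when any 1 array was left out, lowest without WT replicate 2 or rb10 replicate 1. AT5G16130 read 9.76 to 9.88 in WT and 10.55 to 10.76 in rb10 (0.81 ± 0.11), and AT2G40010 ran against the rest (-0.82 ± 0.12). Nucleolar and ribosome assembly genes had 13 of 62 higher and 0 lower, with a median of 0.29, and 5 higher with equal medians. Leaving out 1 array gave 5 to 10, lowest without rb10 replicate 2. AT1G23280 (0.84 ± 0.12), AT1G79150 (0.83 ± 0.13) and YAO (0.69 ± 0.18), a nucleolar protein, were among them.

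Growth hormone genes showed single large differences. WAG2, a kinase that directs auxin transporters, was higher by 2.32 ± 0.44 and the SAUR gene AT4G34800 by 1.79 ± 0.17. Of 79 SAUR entries listed 5 were measured, and 3 of them were called higher. That count was 2 with equal medians and 1 without WT replicate 1, rb10 replicate 2 or rb10 replicate 3. The lowest SAUR difference was -1.14, not called, and 1 SAUR gene was called lower without WT replicate 2. The auxin repressors IAA20 and IAA29 were lower by 2.12 ± 0.33 and 1.52 ± 0.15. In their family 3 of 8 were called lower and 0 higher, and the largest positive difference was 0.58. A list of auxin genes was mixed, with 2 of 13 higher and 3 lower (median -0.15). IAA29 is also a target of the PIF factors that keep seedlings etiolated. It read 7.42 to 7.93 in WT and 6.06 to 6.14 in rb10. Of 4 PIF and shade targets on the arrays, 2 were called lower and 1 higher (0.38). Leaving out any 1 array gave 0 higher and 1 or 2 lower. FLZ proteins, adaptors of the energy-sensing kinase SnRK1, had 5 of 14 higher and 1 lower, led by AT4G17670, which read 2.74 to 3.14 in WT and 5.35 to 5.80 in rb10 (2.67 ± 0.16). Those WT signals lay below 3.48, the 10th percentile of the mean signals of tested probe sets, so that difference rests on a low baseline. Leaving out any array but WT replicate 1 gave 3 FLZ genes higher, as did equal medians. IQD proteins, which bind calmodulin at microtubules, had 6 of 17 higher and 1 lower (6 and 3 with equal medians), with IQD20 at 1.5 ± 0.29 and IQD19 at 1.42 ± 0.14.

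The dark arrays, which share no array with the light comparison, were used to look for these differences before light. The results over 11 arrays depend on leaving out rb10 dark replicate 3, which was done because of its signals in these same data. Over 11 arrays, 933 probe sets (5.58%) were called higher and 744 (4.45%) lower in rb10 in darkness, while over 12 arrays 1 probe set (0.00598%) was called, with 2493 at an unadjusted p below 0.05. Of the probe sets called higher after light, 92.2% had a positive difference in darkness, compared with 45.4% of all tested probe sets. Of those called lower, 83.2% had a negative one, compared with 54.6% of all. With rb10 dark replicate 3 kept, these shares were 89.4% and 82.0%. Across the 16722 probe sets the differences in light and in darkness correlated at r = 0.65 (0.60 with 12 arrays), a description over genes that are not independent.

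Calls in both conditions numbered 684 higher, 41.3% of the light calls and 73.3% of the dark calls, and 469 lower, 29.4% and 63.0%. Only 19 probe sets were called with opposite signs. Among the 50 largest higher calls after light, 48 were also called higher in darkness over 11 arrays, but among the 50 largest lower calls 18 were. In darkness over 11 arrays, 5 of 19 dirigent, 17 of 85 GDSL, 12 of 52 lipid transfer and 27 of 151 ribosomal protein genes were called higher, against 5.58% of all probe sets. There 16 of 38 LEA and 7 of 20 glutaredoxin genes were called lower, against 4.45%. Over 12 arrays 0 genes of these families were called in the same direction (limma, adjusted p).

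Whether the effect of light differed between genotypes was tested directly. Over 12 arrays, 88 probe sets (0.526%) had a more positive light effect in rb10 than in WT and 284 (1.70%) a more negative one, and 11 arrays gave 101 (0.604%) and 284 (1.70%). Of the genes lower after light, 280 (17.6%) also had a more negative light effect over 12 arrays, compared with 85 (5.1%) for a more positive one among those higher. Genes with a more negative light effect in rb10 over 12 arrays included 8 of 12 small heat shock genes, 5 of 16 co-chaperones, 4 of 9 CYSTM, 5 of 31 calmodulin-like, 3 of 10 ZAT-type and 3 of 14 U-box genes. Over 11 arrays the co-chaperones numbered 4, the CYSTM genes 3 and the calmodulin-like genes 6, and the other counts were the same. Among 38 LEA, 19 dirigent and 13 lectin genes 0 passed that test in either direction, over 11 or 12 arrays. With only 0.526% and 1.70% of all probe sets called over 12 arrays, few or none would be found in families this small. Equal light effects were therefore not shown for them. SPCH had a more positive light effect in rb10 over 12 arrays (1.37, adjusted p = 0.0367) but not over 11 (adjusted p = 0.0614).

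Side by side, the median light effect of the small heat shock genes was 4.62 in WT and 1.42 in rb10 over 11 arrays, that of CYSTM genes 0.37 and 0.11, and that of U-box genes 0.82 and 0.13. Of the 5 small heat shock genes with the largest differences after light, only AT1G54050 had a called light effect in rb10 over 11 arrays (1.57, adjusted p = 0.0120). In other genes the light effect was small in WT and negative in rb10. The light effect of AT5G05965 was -0.67 in WT and -3.35 in rb10, that of AT5G18600 -0.37 and -2.43, that of IAA20 -0.24 and -2.74, and that of WRKY22 0.21 and -1.54. That of PPDK was -0.05 in WT and -0.78 in rb10, and its difference in light effect was called (-0.83, adjusted p = 0.0210). These comparisons reuse the WT and rb10 light arrays and are no independent support for the differences after light.

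**Figure D5:**
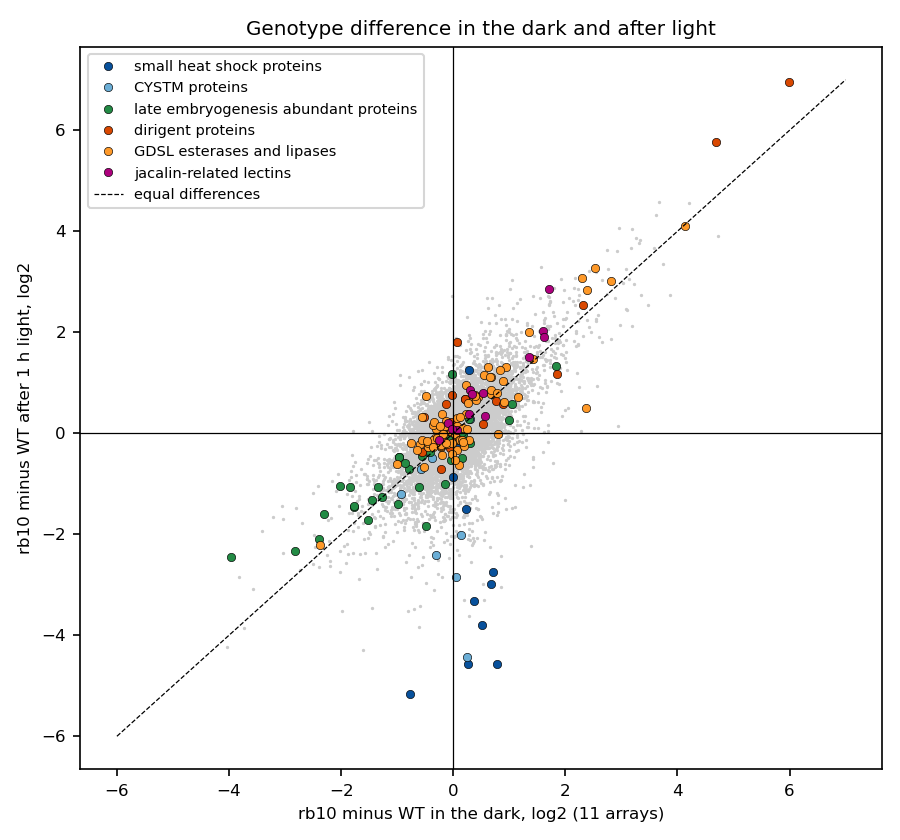
Difference between rb10 and WT in darkness (x axis, 11 arrays, log2) and after 1 h of light (y axis, log2) for all 16722 tested probe sets in grey, with 6 families in colour and a dashed line where the differences are equal. Dirigent, GDSL, lectin and LEA genes lie along the line, while small heat shock and CYSTM genes lie within 1 of 0 in darkness and down to -5.17 after light.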

How the data were processed

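The deposited series matrix holds log2 signals of 12 arrays, and RMA and GCRMA are both named, per the submitters' processing notes, without version or role, so it is not known here which made these log2 values. No scanner files were used. Arrays were grouped by genotype and light from their labels. Probe sets were paired with genes through the platform annotation given with the series and named through the RefSeq table of TAIR10.1, in which 16574 single-gene probe sets matched by gene ID and 96 by locus code. For a gene with several probe sets, families use the one with the highest mean signal.

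Differences were fitted in R 4.3.3 with limma 3.58.1 (lmFit and eBayes) on the 6 light arrays, and p-values were adjusted by Benjamini-Hochberg over 16722 probe sets. Dark differences and differences in light effect came from 4 group means over 12 arrays, or 11 without rb10 dark replicate 3. The code was tested on simulated data. Same-numbered WT and rb10 light arrays did not deviate together (correlations of -0.0009 to 0.06), so no replicate block was used. No detection calls or depth come with these values, and 3 arrays per group limit the precision.

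Members, families and lists were chosen with earlier results of these data known. Families of genes with a locus code only were written from general knowledge of Arabidopsis, and list counts carry no test. The result of 1 family is not reported here. Named genes are RAPTOR1, RAPTOR2, TOR (no single-gene probe set) and reference genes, the 10 largest called differences each way, and up to 5 called members per family of largest difference. Other members of a list are named where the list is given gene by gene. Alternatives were the fits with 12 and 11 arrays, equal array medians, renewed quantile normalization, other sets of probe sets, a replicate block, a trended robust prior, a minimum difference of 1, and leaving out each array.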

Additional observations from a re-analysis of the deposited data

Results flagged for a closer look

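The effect of 1 h of light differed between the genotypes for 372 probe sets over 12 arrays by the limma interaction test, which flagged these genes among the 20 largest differences. The light effect in rb10 minus that in WT was -4.72 for AT1G53540, -5.18 for AT1G54050, -4.84 for AT1G52560 and -4 for ATHSP22.0, all small heat shock protein genes. It was -4.79 for the CYSTM gene AT2G32200, -3.7 for CML38 and -3.19 for AT5G05965. Without the array labelled rb10 dark replicate 3, 385 probe sets were called, and the 7 genes gave -4.41, -5.34, -4.82, -4.31, -4.68, -3.24 and -2.68 in the same order, each still called (adjusted p between 0.000302 and 0.00937). For the first 4, AT2G32200 and CML38 the difference in darkness was not called over 11 arrays and was smaller than after light. Those dark differences ran from -0.76 (AT1G53540) to 0.77 (AT1G54050). AT5G05965 was already lower in rb10 in darkness (-1.61, 11 arrays) and fell further there in light.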

How the results depend on the processing

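With 3 arrays per group, no detection calls and no choice known between RMA and GCRMA, low signals and small differences are the least firm. After light, 3250 calls (1656 higher, 1594 lower) became 2768 lower with equal medians, 5743 (3194 and 2549) with every probe set tested, and 1202 (621 and 581) with a minimum difference of 1, under which RAPTOR1, at -0.66, was no longer called. Leaving out 1 array gave 2095 to 2501 calls, 1046 to 1287 higher and 1049 to 1214 lower, fewest without rb10 light replicate 2, and RAPTOR1 at -0.74 to -0.62. The replicate block, for numbers that do not pair the arrays, gave 2485 calls (1263 higher and 1222 lower). In darkness, 1 call over 12 arrays became 0 with the replicate block, and leaving out 1 array gave 0 to 1677 calls (0 to 933 higher and 0 to 744 lower), the maxima without rb10 dark replicate 3. For the difference in light effects, 372 calls became 210 to 385 (36 to 101 higher, 174 to 284 lower), lowest without WT light replicate 1 (246 without WT light replicate 3, 235 without rb10 light replicate 2), and 88 higher became 133 with a trended robust prior. Families at 2 times the background share numbered 16 to 19 and 15 to 20 in these fits. Of 248 named genes called after light, 53 at most lost the call without 1 array (rb10 light replicate 2), 37 with the replicate block, 19 with equal medians, and 86 with the minimum difference; none changed sign in these fits. The cause was not tested.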
